A study of Mus musculus with 6 samples.

Results

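The liver is the main site where surplus amino acids are broken down, and 49 genes encoding enzymes of this breakdown were described in primary hepatocytes of alcohol-fed mice. The genes were chosen by name for their function: those of tyrosine, tryptophan, serine, histidine, lysine, branched-chain amino acid, propionyl-CoA, proline, glycine and cysteine catabolism, and the transaminases. All 49 were found among the 25718 genes of the deposited table, and all 49 passed the filter on low counts, which left 15957 genes to be tested.

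Hepatocytes make up most of the liver's mass. RNA was sequenced from primary hepatocytes of alcohol-fed WT mice and of alcohol-fed S100a16KO+/- mice, with 3 libraries of each. The study's methods describe S100a16KO+/- mice as heterozygous for an allele whose floxed exons 2 and 3 were removed by EIIa-Cre, which is active in the early embryo, so that the deletion is not limited to hepatocytes. The sample labels call the same genotype an S100A16 knockdown, and homozygous loss is described as lethal. The mice were males of 8 to 10 weeks on a C57BL/6 background. Per the methods, all of them received 5 days of control liquid diet, 10 days of a liquid diet with 5% ethanol by volume and a gavage of 5 g ethanol per kg body weight, with collection 9 hours later. The cells were isolated by collagenase perfusion and a Percoll gradient. The libraries of both genotypes came from alcohol-fed mice, so the comparison is between genotypes under alcohol and not between alcohol and control diet.

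As background, most amino acids lose their nitrogen first, by transfer to an oxo acid through a transaminase or directly as ammonia through a dehydratase or lyase. The remaining carbon skeletons are then oxidised, largely in mitochondria, to intermediates that feed glucose synthesis or ketone body and fatty acid metabolism. Many of these enzymes are enriched in periportal hepatocytes and are known to be induced by glucagon, glucocorticoids and fasting.

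The deposited values are estimated counts and FPKM. Total counts ranged from 67658095 to 71807834 per library, and a single fragment stood for about 4 counts. At a count of 0 the true value can be as high as 3 fragments (12 counts), equal to 0.167 to 0.187 CPM (counts scaled to library size by TMM) depending on the library; the lowest value of any of the 49 enzymes in any library was 5.80 CPM, for Ado. The counts of S100a16 itself were 1001, 1056 and 1107 in WT against 433, 390 and 366 in S100a16KO+/- libraries, so that the targeted gene matched the labels. Mitochondrial transcripts took 21.1% of the counts in WT replicate 1 and 20.1% in S100a16KO+/- replicate 2, against 17.0% to 18.6% in the other libraries. Among 8 hepatocyte markers, none was at 0 in any library, and their summed level was 117949 to 130542 CPM in WT and 113686 to 126222 CPM in S100a16KO+/- libraries. The mice behind the libraries are not identified one by one in the labels, so the p values measure the spread between these libraries.

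Of the 49 enzymes, 27 differed between genotypes at an adjusted p under 0.05 in edgeR's quasi-likelihood test, 8 of them higher and 19 lower in S100a16KO+/- hepatocytes. Over all tested genes, 22.8% were called at this threshold, 11.6% higher and 11.2% lower. Most of the 49 enzymes are abundant and were measured precisely. Among the 8215 tested genes with a mean FPKM at or above that of the lowest of the 49, which was 1.29, 33.8% were called. This floor does not match those genes to the enzymes for level. The 22.8% and 33.8% are also the shares to read beside the counts for each pathway below, which rest on 2 to 10 enzymes. The median standard error (SE) of the log2 fold change was 0.05 for the enzymes and 0.14 for all tested genes. Most of the differences were small: 32 of the 49 (65.3%) had an absolute log2 fold change under 0.25, against 50.6% of all tested genes, and 7 (14.3%) reached 0.5, against 24.8%. The median log2 fold change of the set was -0.11, against 0.01 over all tested genes. For 33 of the 49, the 3 values of one genotype all lay on the same side of the 3 values of the other, which held for 37.9% of all tested genes. At an unadjusted p under 0.05, 9 of the enzymes were higher and 24 lower. The share of all tested genes at this unadjusted threshold is not given here, so these counts have nothing to be set against. DESeq2 called 8 of the enzymes higher and 23 lower at an adjusted p under 0.05. With limma on log2(FPKM + 1), 16 were called, 5 higher and 11 lower. Over all genes, DESeq2 called 3865 of 15947, and this limma fit called 2228 of 9054.

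The largest rises were those of Got1, Sds and Acmsd, and the largest falls those of Amt, Csad, Dbt and Tst. By the definition of differential expression in the study's methods, a fold change of at least 2 at an unadjusted p under 0.05, there were 4 such enzymes of 49, against 4.52% of all tested genes. These were Got1 and Sds, which rose, and Amt and Csad, which fell. By size alone, 8.16% of the 49 enzymes and 7.44% of all tested genes had an absolute log2 fold change of at least 1. The call at an adjusted p under 0.05 was kept by 17 of the 27 enzymes when each library was left out in turn, namely by 4 that rose (Got1, Sds, Acmsd and Hal) and by 13 that fell. The other 10, with log2 fold changes between -0.24 and 0.21, lost the call without at least 1 library, as given below for each.

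**Figure D1:**
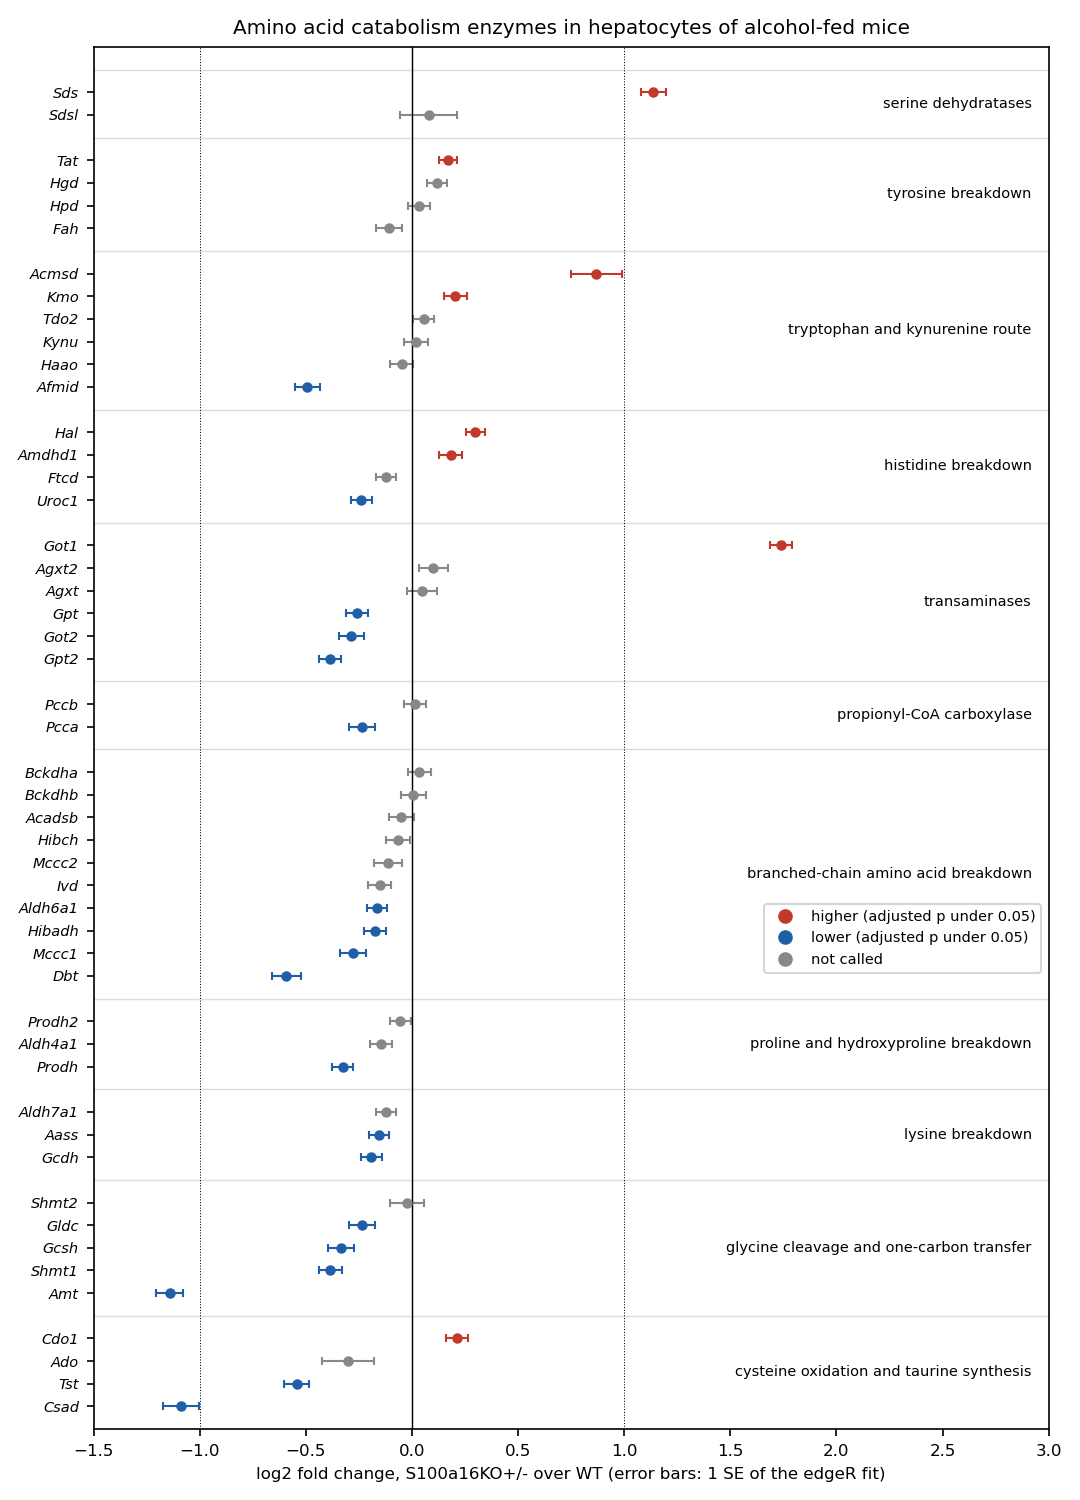
Log2 fold change of each of the 49 enzymes in S100a16KO+/- over WT hepatocytes (horizontal axis), grouped by pathway, with bars of 1 standard error of the edgeR fit; colours mark the call at an adjusted p under 0.05. The values run from -1.14 for Amt to 1.74 for Got1, and 32 of the 49 lie within 0.25 of 0.

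Of the enzymes that met the study's definition, the bases just upstream are shown for Got1 and Amt, which had the largest rise and the largest fall. Sds and Csad are not shown, as no RefSeq start used here lay within 100 bases of their start in the deposited table. The bases were taken from RefSeq on GRCm38.p6 and printed 5′ to 3′ on the strand of the gene. Capitals mark matches to the motifs searched. The Got1 stretch is chr19:43524606-43524855 on the minus strand, the 250 bases before the gene's start in both RefSeq and the deposited table. The Amt stretch is chr9:108296655-108296852 on the plus strand, the 198 bases before the start in the deposited table, which lies 52 bases upstream of the RefSeq start.
Got1: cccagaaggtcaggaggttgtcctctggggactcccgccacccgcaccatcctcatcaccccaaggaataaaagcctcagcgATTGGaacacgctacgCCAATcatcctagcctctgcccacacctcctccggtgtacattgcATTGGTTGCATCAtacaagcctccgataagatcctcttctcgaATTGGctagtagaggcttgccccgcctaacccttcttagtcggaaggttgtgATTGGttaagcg
Amt: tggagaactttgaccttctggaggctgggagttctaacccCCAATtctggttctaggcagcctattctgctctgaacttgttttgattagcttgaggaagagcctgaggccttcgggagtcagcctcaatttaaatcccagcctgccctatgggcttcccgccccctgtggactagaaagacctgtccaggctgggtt
In the Got1 stretch, CCAAT (the CCAAT box) matched 5 times, once on the strand of the gene and 4 times as ATTGG on the opposite strand. TGATGNAA, the core of the amino acid response element, matched 1 time, on the opposite strand as TTGCATCA from 102 to 95 bases before the start, and directly adjoins the ATTGG from 107 to 103. In the Amt stretch, CCAAT matched 1 time, from 210 to 206 bases before the RefSeq start.

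The same motifs were searched on both strands over the 250 bases before the start for the 32 enzymes whose RefSeq start lay within 100 bases of the start in the table, out of 41 with a RefSeq window, and for 10585 genes in all. CCAAT was found in 20 of the 32 windows (62.5%), against 37.2% of all windows. TGATGNAA was found in 1 of 32, that of Got1, against 1.99% of all windows. The cAMP response element TGACGTCA and the unfolded protein response element TGACGTGG were found in 0 of 32, against 2.68% and 0.709% of all windows. Their shared core TGACG, which overlaps both, was found in 6 of 32 (18.8%), those of Aass, Acadsb, Acmsd, Ftcd, Pcca and Shmt1, against 25.3%. The glucocorticoid receptor half-site TGTTCT was found in 4 of 32 (12.5%) against 11.8%, the E-box CACGTG in 1 of 32 (3.13%) against 7.97%, and TATAAA in 4 of 32 (12.5%) against 7.94%. These are matches of letters in a window, described without a test.

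Among the 6 transaminases, which move amino groups between amino acids and oxo acids, Got1 rose, Got2, Gpt and Gpt2 fell, and Agxt and Agxt2 were not called. That is 66.7% called, against 22.8% of all tested genes. Got1 (ENSMUSG00000025190, chr19:43499752-43524605, minus strand, mm10) encodes the cytosolic aspartate aminotransferase. WT libraries had 11159, 11416 and 11516 counts, and S100a16KO+/- libraries had 38542, 33656 and 40972. The lowest S100a16KO+/- library was far above the highest WT library. After scaling, WT libraries held 164.6 ± 3.22 CPM (SD, n = 3) and S100a16KO+/- libraries 549.6 ± 23.3 CPM (SD, n = 3). The rise was 3.34-fold, or 1.74 on the log2 scale (SE 0.05, edgeR adjusted p = 9.80e-12). The mitochondrial enzyme of the same reaction, Got2, was lower, with 398, 374 and 369 CPM in WT and 299.6, 338 and 299.3 CPM in S100a16KO+/- libraries. Its log2 fold change was -0.29 (adjusted p = 0.00234). The alanine aminotransferases, Gpt (cytosolic) and Gpt2 (mitochondrial), were also lower, with log2 fold changes of -0.26 (adjusted p = 0.00225) and -0.39 (adjusted p = 8.72e-05), and for both the genotypes did not overlap. Agxt, the alanine-glyoxylate aminotransferase that keeps glyoxylate from becoming oxalate, and Agxt2, a mitochondrial enzyme of the same family of reactions, had log2 fold changes of 0.05 (adjusted p = 0.691) and 0.10 (adjusted p = 0.329), with overlapping genotypes. Without S100a16KO+/- replicate 2, Agxt2 passed the threshold (log2 fold change 0.18, adjusted p = 0.0352).

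The serine dehydratases release ammonia from serine and threonine. Sds (ENSMUSG00000029597, chr5:120476526-120483932, plus strand) had 9095, 10157 and 9870 counts in WT and 21549, 18652 and 23491 counts in S100a16KO+/- libraries. All 3 S100a16KO+/- values were above all 3 WT values. Its level rose from 140.6 ± 6.40 to 309.1 ± 18.04 CPM (SD, n = 3 each), 2.20-fold (log2 fold change 1.14, SE 0.06, edgeR adjusted p = 4.71e-09). Sds overlaps Plbd2 and Gm15690 on the opposite strand, which had log2 fold changes of 0.37 (adjusted p = 0.000730) and 0.79 (adjusted p = 0.00585). The libraries kept strand, but whether the counting used it is not given in the sources used here, and reads of overlapping genes could then not be told apart. Sdsl, the serine dehydratase-like gene, starts 3.72 kb from Sds and is transcribed away from it. It was far lower and was not called, at 8.14, 12.2 and 11.7 CPM in WT and 11.0, 11.0 and 11.9 CPM in S100a16KO+/- libraries (log2 fold change 0.08, from -0.19 to 0.34 at 1.96 standard errors either side, adjusted p = 0.744).

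**Figure D2:**
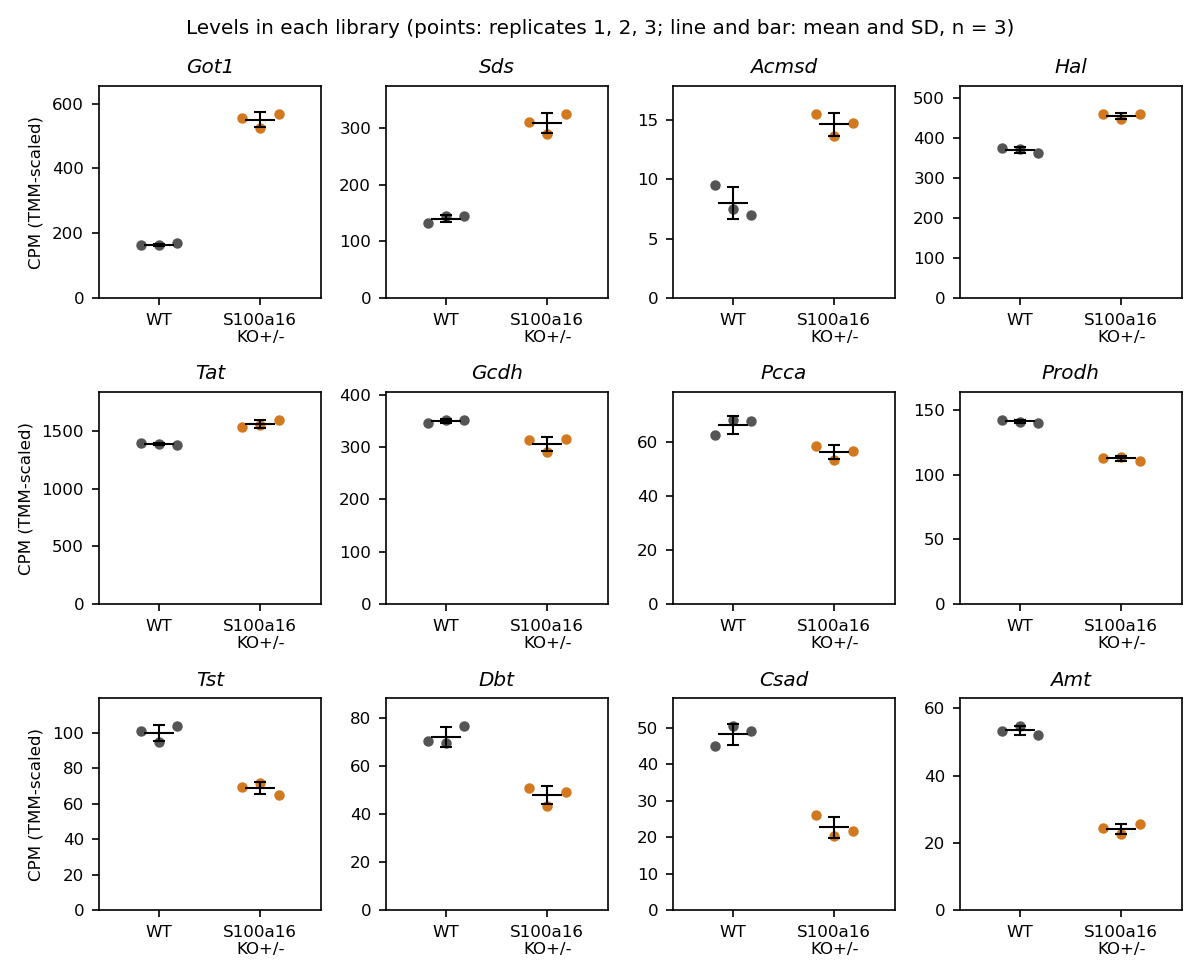
Level in CPM (vertical axis, from 0) of 12 enzymes in each library, WT in grey and S100a16KO+/- in orange, with the mean and SD of 3 libraries. The genotypes do not overlap in any of the 12 panels. These 12 were picked by adjusted p and size of change in these same data, which favours genotypes that do not overlap. Of all 49 enzymes, 33 did not overlap, against 37.9% of all tested genes. Got1 goes from 164.6 to 549.6 CPM, whereas Tat goes from 1387 to 1561 CPM.

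Tyrosine breakdown was the most abundant pathway of the set per transcript length. Tat, the tyrosine aminotransferase that starts the pathway, and Hpd, which encodes the next enzyme, had the highest levels of the 49 in WT, at 515.0 ± 19.6 and 435.4 ± 3.04 FPKM (SD, n = 3 each). Of the 4 enzymes, Tat was called higher and Hpd, Hgd and Fah were not called. Tat (ENSMUSG00000001670, chr8:109990437-109999803, plus strand) had 95457, 97312 and 94527 counts in WT and 106227, 99855 and 115071 counts in S100a16KO+/- libraries. These do not overlap, but the gap between the nearest libraries was small. The difference on the log2 scale was 0.17 (SE 0.04, adjusted p = 0.00921), and the call was lost without WT replicate 2 (adjusted p = 0.0540) or WT replicate 3 (adjusted p = 0.0652). Hgd, the ring-opening dioxygenase, had 0.12 on the log2 scale (adjusted p = 0.105), and Hpd had 0.03 (adjusted p = 0.703). Hpd overlaps Psmd9 on the opposite strand, which had up to 1758 counts in a library and rose by 0.38 (edgeR adjusted p = 0.00159). Fah, which carries out the last step, had -0.11 (adjusted p = 0.256) with all libraries and -0.17 (adjusted p = 0.0467) without S100a16KO+/- replicate 2.

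In the tryptophan and kynurenine route, which leads to NAD or to full oxidation of the ring, 2 of 6 enzymes rose, 1 fell and 3 were not called. That is 50.0% called, against 22.8% of all tested genes. Acmsd (ENSMUSG00000026348, chr1:127729413-127767978, plus strand) encodes the decarboxylase that diverts the route from NAD synthesis towards oxidation. It had 651, 529 and 477 counts in WT and 1076, 875 and 1060 counts in S100a16KO+/- libraries, among the lowest counts of the set. The S100a16KO+/- values were all higher, and the level went from 8.01 ± 1.35 to 14.6 ± 0.961 CPM (SD, n = 3 each), 1.83-fold higher (log2 fold change 0.87, SE 0.12, adjusted p = 0.000104). Kmo, the kynurenine hydroxylase, was higher by 0.20 on the log2 scale (adjusted p = 0.0139). Its call was lost without WT replicate 2 or S100a16KO+/- replicate 1 or 3 (adjusted p of 0.0713, 0.0839 and 0.0552). Kmo overlaps Fh1 on the opposite strand, which rose by 0.75 on the log2 scale (adjusted p = 8.33e-07). Afmid, the formamidase of the second step, went the other way, with 90.5, 94.1 and 82.2 CPM in WT and 61.9, 63.8 and 64.0 CPM in S100a16KO+/- libraries (log2 fold change -0.49, adjusted p = 3.47e-05). Afmid shares its strand with the overlapping Gm20708, whose log2 fold change was -0.55 (adjusted p = 0.0834), and reads shared by the pair could have been divided between them in the counting. It also overlaps Tk1 on the opposite strand, which differed by -0.51 on the log2 scale (adjusted p = 0.00227). Tdo2, the dioxygenase that opens the route, averaged 196.3 ± 11.7 FPKM in WT against 205.2 ± 14.8 FPKM in S100a16KO+/- hepatocytes (SD, n = 3 each) and was not called (adjusted p = 0.479). Kynu and Haao had log2 fold changes of 0.02 and -0.05 (adjusted p of 0.856 and 0.609).

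Of the 4 enzymes of histidine breakdown, Hal and Amdhd1 rose, Uroc1 fell and Ftcd was not called. Hal (ENSMUSG00000020017, chr10:93488768-93519304, plus strand), the ammonia lyase of the first step, had 25732, 26253 and 24868 counts in WT and 31880, 28758 and 33257 counts in S100a16KO+/- libraries. All S100a16KO+/- libraries were above the WT libraries (log2 fold change 0.30, SE 0.05, adjusted p = 0.000246). Uroc1, the urocanase of the second step, was lower, with a log2 fold change of -0.24 (adjusted p = 0.00247) and no overlap. Amdhd1, the imidazolonepropionase of the third step, lies 4.03 kb from Hal with its 3′ end facing that of Hal, and rose by 0.18 on the log2 scale (adjusted p = 0.0237). Its call was lost without WT replicate 1 or 2 or S100a16KO+/- replicate 1 or 3, with adjusted p from 0.0738 to 0.105. Ftcd, which passes the last fragment to folate, had -0.12 (adjusted p = 0.0845).

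Of the 5 enzymes of the glycine cleavage system and its serine hydroxymethyltransferases, 4 fell and 0 rose in edgeR's test (0 higher also at an unadjusted p under 0.05 and with DESeq2). The share called was 80.0% of a list of 5, against 22.8% of all tested genes, of which 11.2% fell. Amt (ENSMUSG00000032607, chr9:108296853-108302302, plus strand) encodes the aminomethyltransferase, the T protein of the complex, and its upstream bases are shown above. It had 3640, 3863 and 3569 counts in WT and 1698, 1454 and 1844 counts in S100a16KO+/- libraries. The highest S100a16KO+/- library was well under the lowest WT library. Its level fell from 53.4 ± 1.37 to 24.2 ± 1.51 CPM (SD, n = 3 each), to 45.4% of the WT level in the fit (log2 fold change -1.14, SE 0.06, adjusted p = 1.17e-08). Gcsh, the lipoyl-carrying H protein, and Gldc, the decarboxylating P protein, had smaller falls, with log2 fold changes of -0.33 (adjusted p = 0.000949) and -0.24 (adjusted p = 0.0102). The call of Gldc was lost without WT replicate 3 (adjusted p = 0.0627) or S100a16KO+/- replicate 3 (adjusted p = 0.0540). Shmt1, the cytosolic serine hydroxymethyltransferase, was at 147.8, 148.5 and 149.6 CPM in WT and 112.6, 109.8 and 119.3 CPM in S100a16KO+/- libraries (log2 fold change -0.38, adjusted p = 9.28e-05). Shmt2, its mitochondrial counterpart, overlapped between genotypes (log2 fold change -0.02, from -0.18 to 0.13 at 1.96 standard errors either side, adjusted p = 0.876).

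Cysteine is oxidised to cysteine sulfinate, which either becomes taurine or is broken down further. Cdo1, the cysteine dioxygenase that makes the sulfinate, was the third most abundant enzyme of the set at 308.5 ± 13.6 FPKM in WT and 359.7 ± 10.7 FPKM in S100a16KO+/- hepatocytes (SD, n = 3 each). Its log2 fold change was 0.21 (adjusted p = 0.0102), and the call was lost without WT replicate 2 (adjusted p = 0.0753). Csad (ENSMUSG00000023044, chr15:102176999-102204253, minus strand), the decarboxylase that takes the sulfinate towards taurine, went the other way. It had 3076, 3563 and 3366 counts in WT and 1805, 1312 and 1563 counts in S100a16KO+/- libraries. Scaled levels were 48.3 ± 2.90 CPM in WT against 22.7 ± 2.95 CPM in S100a16KO+/- hepatocytes (SD, n = 3 each) and did not overlap (log2 fold change -1.09, SE 0.09, adjusted p = 5.12e-07). Tst (ENSMUSG00000044986, chr15:78399556-78405907, minus strand) encodes rhodanese, a mitochondrial sulfurtransferase. It had 6890, 6682 and 7119 counts in WT and 4819, 4594 and 4670 counts in S100a16KO+/- libraries (log2 fold change -0.54, SE 0.06, adjusted p = 1.20e-05). Ado, the cysteamine dioxygenase and least abundant of the 49, had a log2 fold change of -0.30 that did not pass (SE 0.12, adjusted p = 0.0946), although its genotypes did not overlap.

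In the breakdown of the branched-chain amino acids leucine, isoleucine and valine, 4 of 10 enzymes (40.0%) fell and 0 rose in edgeR's test. At an unadjusted p under 0.05, 5 were lower and 0 higher, and DESeq2 gave the same numbers. Of all tested genes, 22.8% were called and 11.2% fell, and 33.8% of the 8215 genes described above were called. Dbt (ENSMUSG00000000340, chr3:116513070-116549981, plus strand), the transacylase core of the branched-chain oxo acid dehydrogenase, had 4793, 4881 and 5254 counts in WT and 3515, 2791 and 3547 counts in S100a16KO+/- libraries. Its genotypes did not overlap, and S100a16KO+/- replicate 2 was the lowest library. The level fell from 72.1 ± 4.07 to 47.8 ± 3.86 CPM (SD, n = 3 each), to 66.3% of WT (log2 fold change -0.59, SE 0.07, adjusted p = 1.96e-05). The decarboxylase subunits of the same complex, Bckdha and Bckdhb, had log2 fold changes of 0.03 and 0.01 (adjusted p of 0.715 and 0.959), with intervals of 1.96 standard errors from -0.07 to 0.14 and from -0.11 to 0.12. Mccc1, the biotin-carrying subunit of the leucine pathway's carboxylase, fell (log2 fold change -0.28, adjusted p = 0.00422), and its partner subunit Mccc2 had -0.11 (adjusted p = 0.271). Hibadh and Aldh6a1, dehydrogenases of valine breakdown, had -0.18 (adjusted p = 0.0248) and -0.16 (adjusted p = 0.0180). Hibadh lost the call without WT replicate 1 or 3 or S100a16KO+/- replicate 1 or 3 (adjusted p from 0.0531 to 0.110), and Aldh6a1 without WT replicate 2 or 3 or S100a16KO+/- replicate 1 (adjusted p from 0.0526 to 0.0755). Ivd, the isovaleryl-CoA dehydrogenase of leucine breakdown, had -0.15 (adjusted p = 0.0592, and 0.0462 without S100a16KO+/- replicate 3). Hibch and Acadsb had -0.07 and -0.05 (adjusted p of 0.482 and 0.628). Acadsb overlaps Fgfr2 on the opposite strand, which had up to 1616 counts in a library. Fgfr2 rose by 1.16 on the log2 scale (edgeR adjusted p = 1.81e-06), and the limit on strand given for Sds holds here too.

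Of the subunits of propionyl-CoA carboxylase, which takes up the propionyl-CoA left by valine and isoleucine, alpha fell and beta was not called. Pcca (ENSMUSG00000041650, chr14:122534324-122891100, plus strand), the biotin-carrying alpha subunit, had 4274, 4818 and 4659 counts in WT and 4070, 3438 and 4105 counts in S100a16KO+/- libraries. The difference on the log2 scale was -0.23 (SE 0.06, adjusted p = 0.0119), and the call was lost without WT replicate 2 (adjusted p = 0.0575) or WT replicate 3 (adjusted p = 0.0559). Pcca overlaps Ggact on the opposite strand, which had -0.22 (adjusted p = 0.0447). The beta subunit Pccb had 0.01 (adjusted p = 0.888). Differences between subunits of a complex were not tested.

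Of 3 enzymes of lysine breakdown and 3 of proline and hydroxyproline breakdown, 2 and 1 fell and 0 rose in edgeR's test (3 and 2 lower and 0 higher at an unadjusted p under 0.05, and the same numbers with DESeq2). The shares called were 66.7% and 33.3%, against 22.8% of all tested genes and 33.8% of the 8215 genes described above. Gcdh (ENSMUSG00000003809, chr8:84886393-84893921, minus strand), the glutaryl-CoA dehydrogenase, had 23608, 24730 and 24094 counts in WT and 21652, 18679 and 22689 counts in S100a16KO+/- libraries. On the log2 scale it differed by -0.19 (SE 0.05, adjusted p = 0.0117), and the call was lost without WT replicate 2 (adjusted p = 0.0506) or WT replicate 3 (adjusted p = 0.0525). Aass, the bifunctional first enzyme of lysine breakdown, had -0.15 (adjusted p = 0.0304) and lost the call without any 1 of the libraries other than S100a16KO+/- replicate 2 (adjusted p from 0.0508 to 0.117). Aldh7a1, the next dehydrogenase, had -0.12 (adjusted p = 0.0907). Prodh (ENSMUSG00000003526, chr16:18060357-18090203, minus strand), the proline dehydrogenase, had 9746, 9926 and 9594 counts in WT and 7838, 7336 and 7985 counts in S100a16KO+/- libraries, and replicates of one genotype lay close together. On the log2 scale it differed by -0.33 (SE 0.05, adjusted p = 0.000229). Aldh4a1, which takes the product of Prodh to glutamate, had -0.15 (adjusted p = 0.0514), and Prodh2, the hydroxyproline dehydrogenase, had -0.05 (adjusted p = 0.508).

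**Figure D3:**
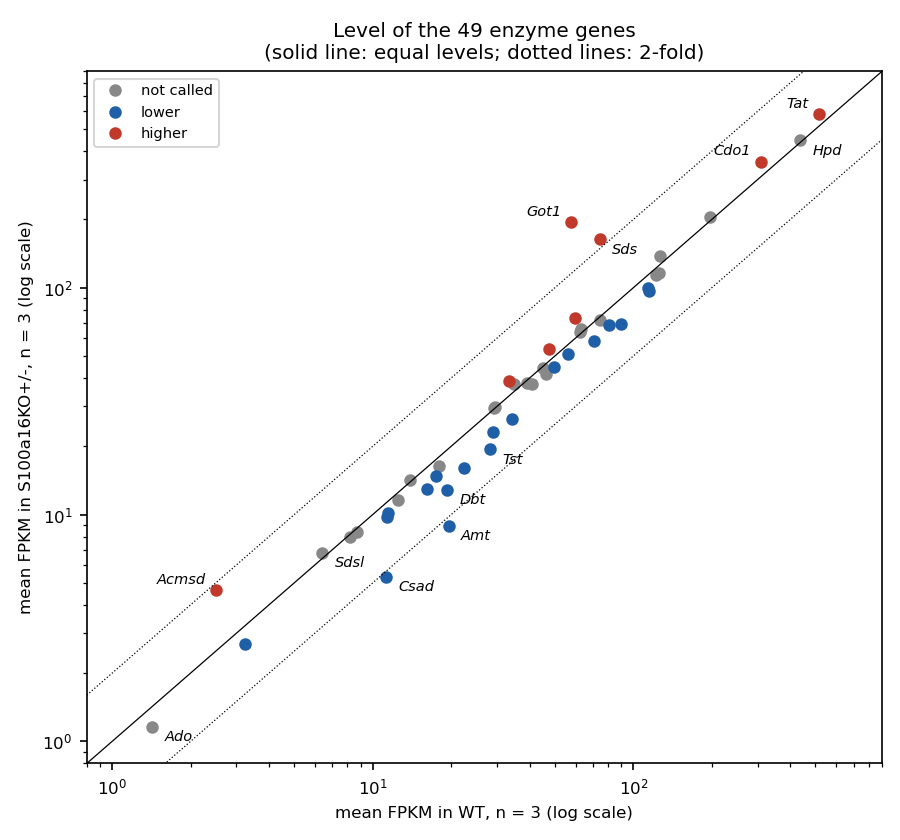
Mean FPKM of each of the 49 enzymes in WT (horizontal axis) and S100a16KO+/- hepatocytes (vertical axis), both on log scales, n = 3 each; the solid line marks equal levels and the dotted lines 2-fold differences. The enzymes span from Ado at 1.43 FPKM to Tat at 515.0 FPKM in WT, and most points lie close to the line of equal levels.

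FPKM is per transcript length, so the levels of related enzymes could be set side by side within each library. In WT, Got2 was 1.22 times the level of Got1, and in S100a16KO+/- hepatocytes it was 0.299 times (geometric means of 3 libraries). The log2 ratio of Got2 to Got1 was 0.36, 0.28 and 0.21 in WT, against -1.82, -1.56 and -1.85 in S100a16KO+/- libraries, so the order of the pair was turned in every library. Sds was 11.8 times the level of Sdsl in WT and 24.2 times in S100a16KO+/- hepatocytes. Cdo1 was 217.0 times the level of Ado in WT and 310.2 times in S100a16KO+/- hepatocytes. The log2 ratio of Shmt2 to Shmt1 was higher in S100a16KO+/- hepatocytes by 0.36, that of Prodh2 to Prodh was higher by 0.27, and the difference for Gpt2 to Gpt was -0.13. Without S100a16KO+/- replicate 2 the difference for Shmt2 to Shmt1 was 0.23. For these 6 pairs the genotypes did not overlap (exact permutation p = 0.1 for each, two-sided, adjusted p = 0.117 over 7 pairs), which is the smallest p that 3 libraries against 3 allow, so that no pair could pass 0.05. Agxt2 to Agxt overlapped, with a difference of 0.05 (exact permutation p = 0.5).

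**Figure D4:**
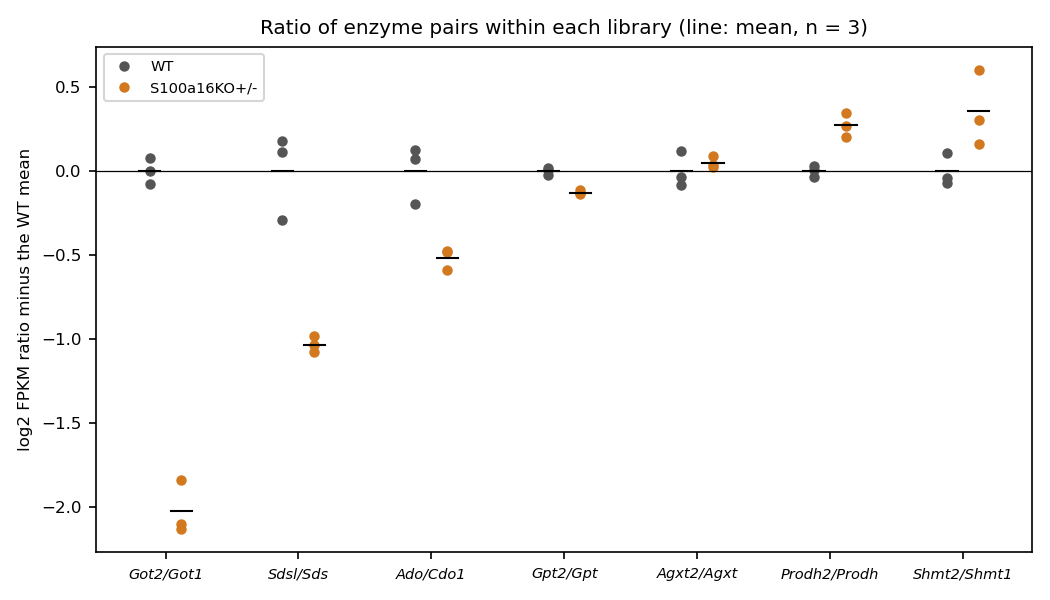
Log2 ratio of the FPKM of 7 enzyme pairs in each library (vertical axis), set to 0 at the WT mean of the pair, with WT in grey, S100a16KO+/- in orange and lines at the mean of 3 libraries. Got2 to Got1 differs most, by -2.03, and Agxt2 to Agxt overlaps between genotypes.

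By the annotation in the deposited table, 33 of the 49 enzymes carried the term mitochondrion. Of these, 3 rose (Tat, Sds and Kmo), 15 fell and 15 were not called, with a median log2 fold change of -0.15. Of all 1569 tested genes with the term, 20.8% fell and 8.67% rose, with a median of -0.09. The narrower term mitochondrial matrix was carried by 16 of the enzymes, of which 7 fell and 0 rose (0 higher also at an unadjusted p under 0.05 in edgeR's test and with DESeq2), against 29.2% falling and 4.25% rising among all 212 tested genes with the term. Of the 16 enzymes without the term mitochondrion, 5 rose (Got1, Acmsd, Hal, Cdo1 and Amdhd1) and 4 fell (Csad, Afmid, Gpt and Uroc1), with a median of 0.03. The terms as annotated are not nested and do not separate compartments cleanly. Bckdha, one of these 16, carried the matrix term without the term mitochondrion. Amt, Gldc and Gcsh carried the term mitochondrion without the matrix term, and Sds carried both mitochondrion and cytosol. Pyridoxal phosphate, the cofactor of transaminases and of many decarboxylases, is bound by 13 of the enzymes per the annotation, of which 3 rose and 6 fell, against 20.8% rising and 29.2% falling among all 48 tested genes with the term. These counts are descriptions and were not tested against each other.

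A further list of 56 enzymes of the same pathways, chosen by function, had 54 genes in the table and 52 tested. Of these, 6 rose and 24 fell, with a median log2 fold change of -0.20. The share called was 57.7%, against 22.8% of all tested genes and 33.8% of the 8215 genes described above. The largest differences among those called were those of Etfdh at -0.78, which passes electrons from acyl-CoA dehydrogenases to the respiratory chain, Acat1 at -0.68, the thiolase that ends isoleucine breakdown, and Oat at -0.65, the ornithine aminotransferase. Among 14 regulators of amino acid catabolism, 3 rose, 4 fell and 7 were not called, with a median of -0.11 and 50.0% called. The coactivator Ppargc1a had a log2 fold change of 1.96, the transcription factor Cebpa -0.70 and its relative Cebpb 0.49, each with an adjusted p under 0.05.

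The set was also read beside markers of where hepatocytes sit in the liver lobule and of other cells. Of 10 periportal markers outside the set, 6 rose and 0 fell in edgeR's test (7 higher and 0 lower with DESeq2 and at an unadjusted p under 0.05), with a median log2 fold change of 0.22, led by Etnppl at 1.61, Pck1 at 1.36 and Ctsc at 0.54. Of 10 pericentral markers, 3 rose and 5 fell, with a median of -0.16 and a range from -1.07 to 0.46. The largest changes were falls, those of Axin2 at -1.07, Cyp2c29 at -0.83 and Oat at -0.65. Oat is also one of the further enzymes above, and Cyp2e1 is both a pericentral and a hepatocyte marker, so these lists are not independent. Over all tested genes, 22.8% were called in edgeR's test. Of the 8 hepatocyte markers, 0 rose and 3 fell in edgeR's test (Cyp3a11, Cyp2e1 and Ttr, at -0.37, -0.33 and -0.33), whereas DESeq2 called 1 higher and 3 lower, the same numbers as at an unadjusted p under 0.05 in edgeR's test. In such bulk libraries fewer cells of a type and less RNA per cell cannot be told apart.

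Among markers of other cells, those of red cells, liver endothelium and stellate cells were called more often than the 22.8% of all tested genes. Kupffer cell and macrophage markers and cholangiocyte markers were called at shares near it, in short lists. Lymphocyte and neutrophil markers were not called. All 5 tested red cell markers fell, with a median of -3.53, and their summed level went from 215 to 252 CPM in WT to 23.4 to 26.3 CPM in S100a16KO+/- libraries; the falls were led by Hba-a2, Hbb-bt and Hba-a1 at -3.57, -3.54 and -3.53. Of 8 liver endothelial markers, 7 rose and 1 fell, Lyve1 at -0.42, with a summed level of 244 to 258 CPM in WT and 364 to 375 CPM in S100a16KO+/- libraries; the largest were Fcgr2b, Clec4g and Stab1 at 0.73, 0.69 and 0.63. Of 8 stellate cell markers, 4 rose and 0 fell (40.2 to 44.1 CPM in WT, 71.5 to 79.2 CPM in S100a16KO+/- libraries), led by Dcn, Lrat and Colec11 at 0.96, 0.81 and 0.61. Of 10 Kupffer cell and macrophage markers, 3 rose and 0 fell, namely Marco, Cd68 and C1qb at 0.74, 0.60 and 0.43 (summed level 146 to 175 and 172 to 188 CPM). Of 4 tested cholangiocyte markers, 0 rose and 1 fell, Sox9 at -0.97 (4.65 to 6.53 and 4.95 to 5.57 CPM), and of 7 tested lymphocyte and neutrophil markers 0 were called by edgeR or DESeq2 and 1 had an unadjusted p under 0.05 (8.19 to 11.1 and 11.2 to 12.3 CPM). Among stellate, Kupffer cell and cholangiocyte markers, DESeq2 called 4, 3 and 0 higher and 0, 0 and 1 lower, and 5, 5 and 0 were higher and 0, 0 and 1 lower at an unadjusted p under 0.05 in edgeR's test. Of the markers found in the deposited table, including those that did not pass the filter on low counts, none was at 0 in every library. For comparison, the summed level of the 49 enzymes was 11402 to 11621 CPM in WT and 11727 to 11877 CPM in S100a16KO+/- libraries. The part of these cells in the values of the enzymes was not tested.

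**Figure D5:**
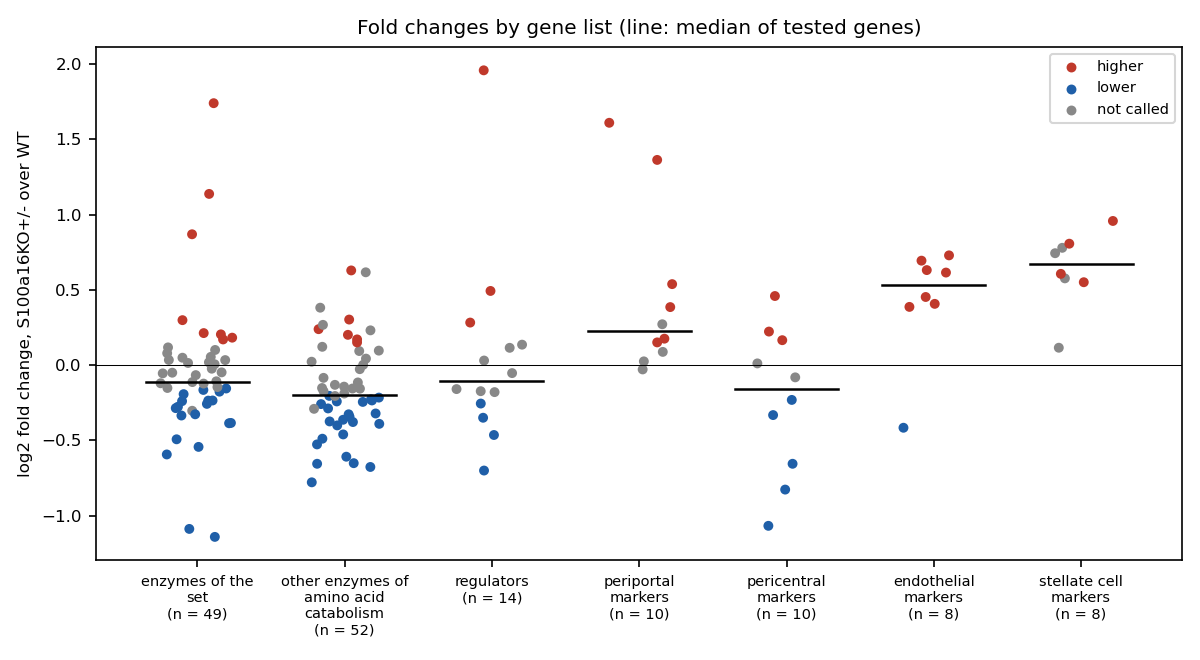
Log2 fold change (vertical axis) of each tested gene in the 49 enzymes, the further enzymes of the same pathways, the regulators and 4 marker lists, with colours for the call at an adjusted p under 0.05 and a line at the median of each list. The medians are -0.11 for the 49 enzymes and -0.20 for the further enzymes, against 0.22 for periportal and -0.16 for pericentral markers.

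By position, 27 of the 49 enzymes overlap no other gene of the table, 22 overlap at least 1, and 6 of these share a strand with it. The enzymes varied little between replicates. Their median coefficient of variation was 3.52% in WT and 4.29% in S100a16KO+/- libraries. For the 8215 genes with a mean FPKM at or above that of the lowest enzyme, it was 6.21% and 6.89%. That enzyme, Ado, lay at the 48.5th percentile of tested genes, so these genes were not matched to the enzymes for level. The library S100a16KO+/- replicate 2, which had the highest mitochondrial share of its genotype, was the lowest of the 3 for 26 of the 49 enzymes (53.1%), against 38.1% of those 8215 genes.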

How the data were processed

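RNA of primary hepatocytes was sequenced in 6 poly(A)-selected, strand-specific, paired-end libraries, 3 per genotype, grouped by their labels. The authors deposited 1 table with an estimated count and an FPKM value per gene and library; the submitters' processing notes name cutadapt 1.9, HISAT2 2.0.4, UMI-tools, StringTie 1.3.4d, DESeq2, edgeR and mm10. The deposited estimated counts were not scaled for depth, and the deposited FPKM values were scaled by the authors for length and depth. How duplicates were removed and whether counting used strand is not given in the sources used here. No column of the authors' own comparison was used.

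Estimated counts, already whole numbers, were tested across the whole table with edgeR 4.0.16 in R 4.3.3 (TMM scaling, filterByExpr, robust quasi-likelihood fit, two-sided, no covariate), with Benjamini-Hochberg adjustment over 15957 genes; the study's methods name DESeq2, which was run as an alternative. The fit was tested on simulated data. Replicates of a genotype differed by more than counting noise. Intervals are 1.96 standard errors, and limits at a count of 0 cover counting error only. Counts in each library are given for enzymes with an adjusted p under 0.05 and an absolute log2 fold change of at least 0.5 and, in a pathway with none, for the one with the largest change; of other lists, the 3 called genes with the largest change are named, with S100a16, and genes named beyond this rule were chosen after their values were seen. The 49 enzymes and all lists were chosen with earlier results of these data known. Enzyme pairs were compared by log2 FPKM ratios with exact permutation tests over 20 assignments. Promoters came from RefSeq GRCm38.p6. Alternatives were DESeq2 1.42.0, limma 3.58.1 with trend on log2(FPKM + 1) and log2(FPKM + 0.1), other scalings and filters, counts divided by 4, other thresholds, a replicate block and leaving out libraries.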

Additional observations from a re-analysis of the deposited data

How the results depend on the processing

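The number of the 49 enzymes with an adjusted p under 0.05 was 27, and it was 16 (5 higher, 11 lower) with limma on log2(FPKM + 1) and also 16 with limma on log2(FPKM + 0.1), where the pseudocount, the unit and the test differed together and the cause was not tested. Leaving out 1 library at a time gave 19 to 29 of the 49 enzymes, 4 to 5 meeting the study's definition and 22 to 30 of the 52 further enzymes. Over all genes, the calls then ran from 2734 of 16590 (without WT replicate 3) to 3302 of 16557 (without S100a16KO+/- replicate 2). With all libraries they were 3643 of 15957. Both limma settings gave 21 further enzymes, with 3 and 4 by the study's definition. Apart from these, the other settings gave 18 to 31 enzymes, 4 to 6 by the study's definition and 26 to 32 further enzymes. DESeq2 gave 31 enzymes. Without both WT replicate 1 and S100a16KO+/- replicate 2, a setting added after the data were seen because these libraries had the highest mitochondrial shares, the numbers were 31, 5 and 32. Over all genes, 3412 of 16191 were called in this setting. Of 192 alternative values for the 12 enzymes given with their counts, 179 kept their direction and call, 13 kept their direction but lost the call (all for Gcdh, Pcca and Tat) and 0 were reversed. Got1 stayed between 1.71 and 1.77 and Amt between -1.18 and -1.05. With the replicate number as a block, 22 enzymes were called (6 higher, 16 lower), 4 met the study's definition and 26 further enzymes were called. Over all genes, 3082 of 15957 were called with the block. Libraries with the same number did not deviate together (r = -0.09, -0.06 and 0.10 across 9209 genes, which are not independent replicates), so the numbers were not taken to pair the libraries. All of the 49 enzymes passed the filter on low counts, but those at the lowest CPM were measured less precisely. The SE of the log2 fold change was 0.12 for Ado and Acmsd and 0.14 for Sdsl, against a median of 0.05. The 7 ratio tests could not pass at 3 libraries against 3.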
